A study of Mus musculus with 27 samples.

Results

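The comparison described here set muscle P1 cells (CD105- CD200+) against muscle P2 cells (CD105- CD200-). These are 6 of the 27 libraries of the series, 3 for each population, and all 30153 genes of the deposited table entered it. Both populations came from the muscle around the femur of the same Prx1-CreER/Ai14/Rag1 mice, male and female and 8 to 12 weeks old. In these mice a Cre recombinase that tamoxifen activates is driven by the Prx1 promoter, the Ai14 reporter then marks a cell and its descendants with tdTomato, and the Rag1 mutation leaves the animals without mature lymphocytes. All groups carried these alleles, received 2 doses of tamoxifen 48 h apart and were harvested 3 days later, and no group had an injury or BMP2. Fat and tendon were trimmed off before the muscle was minced and digested. TdTomato+ CD45- cells were then sorted by the endothelial and stromal glycoprotein CD105 and by CD200. Another muscle population, P3 (CD105+, CD200 variable), and the P1 and P2 populations of periosteum and bone marrow served for reference. The labels number the replicates but do not tie a library to an animal, so the p-values measure the spread between these libraries, which may be partly technical.

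Adult skeletal muscle is built of multinucleated fibers, whose sarcomeres, sarcoplasmic reticulum and glycolytic enzymes take up much of their RNA. Around the fibers lie satellite cells (Pax7+ muscle stem cells), Schwann cells of the intramuscular nerves, vessels with endothelial and mural cells, and the connective tissue fibroblasts and tenocytes that derive from the limb mesenchyme in which Prx1 is active. Prx1 is the older name of the transcription factor encoded by Prrx1. In a bulk library, fewer cells of a type and less RNA per cell cannot be told apart.

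The P1 and P2 libraries held different programs. In P2, 5 lists of genes for the sarcomere, calcium handling, muscle energy metabolism, the nuclear-encoded respiratory chain and erythroid cells, 111 genes in all, took 34.4%, 32.6% and 32.8% of the total of replicates 1, 2 and 3. In P1 the same genes took 1.67%, 2.22% and 1.89%. P1 in turn had higher levels of genes that mark satellite cells, mural cells, tenocytes, bone and cartilage. The shares of these lists also lay above those of P2 in every P3 library. Between the populations the fibroblast genes Prrx1, Pdgfra and Ly6a overlapped. A list of 16 fibro-adipogenic and adventitial fibroblast genes held 3.76% to 5.48% of P1 and 1.39% to 2.5% of P2. A gene was called a differentially expressed gene (DEG) when its adjusted p was below 0.05 and its absolute log2 fold change of P1 over P2 was above 1.5, on the scale log2(normalized count + 1), in limma with Benjamini-Hochberg adjustment over the 13648 genes tested. There were 2771 DEGs, of which 1138 were higher in P1, which is 8.34% of the genes tested, and 1633 were lower in P1, which is 12%. Every P1 library lay above every P2 library for 22.7% of the genes tested and below for 22.2%, and 2769 of the DEGs had no overlap between populations.

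**Figure D1:**
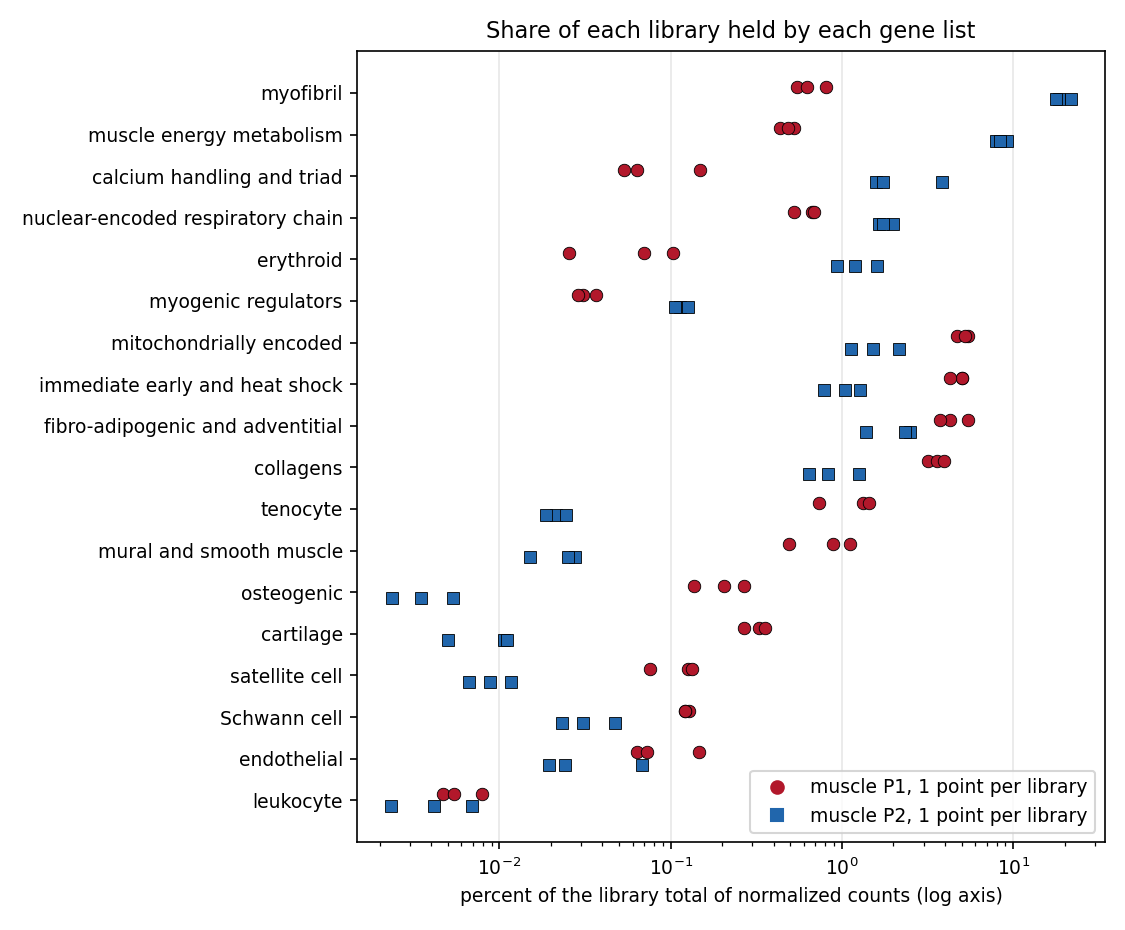
Percent of each library's total of normalized counts (horizontal log axis) that was held by each of 18 gene lists, with 1 point per library, circles for muscle P1 and squares for muscle P2. The sarcomere genes held 17.9% to 21.7% of P2 and 0.547% to 0.811% of P1, while the tenocyte, mural, osteogenic and cartilage lists lay further right in every P1 library.

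The totals of normalized counts were 11201590 to 12278909 in P1 and 18122186 to 18810127 in P2, so the P2 mean was 1.58 times the P1 mean, and 16805 to 17868 genes had a value above 0 in P1 against 14863 to 16144 in P2. The 20 entries with the highest P2 mean alone held 27.3% to 29.9% of a P2 library. Over the genes tested the log2 fold changes had a median of 0.24. With every library rescaled to the same total it moved to 0.89, and the DEGs then split into 2629 higher and 975 lower in P1, so directions below are relative to the deposited scaling and are qualified where this scaling changed them. Replicates correlated across genes with r of 0.876 to 0.897 in P1 and 0.784 to 0.806 in P2, against 0.629 to 0.663 between the populations. The median SD of a gene over replicates was 0.44 on the log2 scale in P1 and 0.72 in P2.

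The genes behind the sort were examined first. Cd200, a membrane glycoprotein that restrains myeloid cells, was at 1025, 3274 and 2560 normalized counts in P1 replicates 1 to 3 and at 10.3, 1107 and 69.5 in P2. P2 replicate 2 thus lay above P1 replicate 1, and the log2 fold change of 4.42 (standard error 1.49) had an adjusted p of 0.0643 in limma. Without P2 replicate 2 it was 6.18 and passed the threshold, and at 4.42 to 5.07 it also passed with the replicate block, the same total, quantile normalization, the 9 muscle libraries or all 27 libraries in the fit. In P3, Cd200 was at 6525 to 8340, above every P1 library. Eng, which encodes CD105, was low in both populations, 178, 382 and 367 in P1 and 569, 364 and 146 in P2, against 4523 to 6067 in P3. Ptprc, which encodes CD45, was at 5.69 to 14.8 in P1 and at 25.6 to 118 in P2, without overlap but not past the threshold (limma adjusted p = 0.0813). Prrx1 itself was at 1266, 1202 and 1313 in P1 and at 1146, 878 and 2371 in P2, with overlap and a log2 fold change of -0.09 (standard error 0.37). The entry of the table named for a transgene was at 16554.7, 22120.2 and 19371.6 in P1 and at 26650.5, 27124.4 and 15526.6 in P2, also with overlap. Of these genes Cd200 alone set 1 library, P2 replicate 2, apart from its label.

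The upstream sequences of 4 genes from the lists described below are shown as examples of windows that hold a motif. They are the 250 bases before the RefSeq transcript start (GRCm38.p6), read in the direction of the gene: Myh4 at chr11:67237562-67237811 on the plus strand, Acta1 at chr8:123894776-123895025 on the minus strand, Ckm at chr7:19410844-19411093 on the plus strand and Bglap at chr3:88384467-88384716 on the minus strand. Capitals mark the E-box CAGCTG, a palindrome bound by MyoD family factors, in the first 3, and the RUNX motif ACCACA in Bglap. They lie 67, 221, 249 and 132 bases before the start.
Myh4: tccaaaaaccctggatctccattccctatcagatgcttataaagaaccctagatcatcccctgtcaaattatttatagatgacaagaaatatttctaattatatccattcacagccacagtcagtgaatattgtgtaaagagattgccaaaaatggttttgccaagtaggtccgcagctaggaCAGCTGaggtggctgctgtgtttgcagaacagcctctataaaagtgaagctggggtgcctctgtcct
Acta1: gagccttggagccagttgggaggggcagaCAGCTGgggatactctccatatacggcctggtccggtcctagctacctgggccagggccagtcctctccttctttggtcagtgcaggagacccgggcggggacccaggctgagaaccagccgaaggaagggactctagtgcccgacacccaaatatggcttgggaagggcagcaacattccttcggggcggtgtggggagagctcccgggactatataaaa
Ckm: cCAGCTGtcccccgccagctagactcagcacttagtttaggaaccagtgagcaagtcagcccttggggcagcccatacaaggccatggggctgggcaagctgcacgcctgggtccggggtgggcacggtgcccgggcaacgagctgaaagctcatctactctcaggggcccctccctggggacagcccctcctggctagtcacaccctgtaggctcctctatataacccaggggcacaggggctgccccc
Bglap: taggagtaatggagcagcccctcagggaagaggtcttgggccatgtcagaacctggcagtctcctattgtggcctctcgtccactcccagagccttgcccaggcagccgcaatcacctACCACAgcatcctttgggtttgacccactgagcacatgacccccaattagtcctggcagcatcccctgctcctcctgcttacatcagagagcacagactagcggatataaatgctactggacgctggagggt

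Over all 27025 genes with such a window, 14.7% held CAGCTG. The motif was in 10 of the 27 sarcomere genes with a window (37.0%), 5 of the 9 calcium handling genes (55.6%) and 11 of the 20 energy metabolism genes (55.0%). On the P1 side it was in 3 of 10 osteogenic genes (30.0%), 6 of 20 immediate early and heat shock genes (30.0%) and 2 of 8 mural genes. It was in 0 of 7 satellite cell genes and in 0 of 6 tenocyte genes, which says only that these letters are not in these windows. The RUNX motif, ACCACA or its complement TGTGGT, was in 15.9% of all genes and in 5 of 10 osteogenic genes. Other lists held it too, with 5 of 27 sarcomere, 2 of 9 calcium handling, 2 of 20 energy metabolism and 2 of 7 satellite cell genes. None of the mural, tenocyte or immediate early and heat shock genes with a window held it. A CArG box, bound by serum response factor, was in 1.62% of all genes and in 6 of the 27 sarcomere genes (22.2%). It was in 2 of 20 immediate early and heat shock genes and in 0 of 8 mural genes. None of the calcium handling, energy metabolism, satellite cell, tenocyte or osteogenic genes with a window held a CArG box. These matches describe the letters of the windows and were not tested as sites.

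Sarcomere genes were the largest block on the P2 side. Of 38 genes of the thick and thin filaments and Z-disc, 35 were DEGs lower in P1 and 0 higher, with a median log2 fold change of -4.77, and for 37 of them every P2 library lay above every P1 library. Myh4 (chr11:67238029-67260446), the myosin heavy chain of fast glycolytic type IIb fibers, was at 280, 255 and 157 in P1 and at 74646, 71598 and 88995 in P2. Its log2 fold change was -8.44 (standard error 0.25, limma adjusted p = 1.4e-05), and the groups were far apart. Acta1 (chr8:123891769-123894751), skeletal muscle actin, was at 22648, 26001 and 14187 in P1 and at 1030835, 1275861 and 1125386 in P2, a log2 fold change of -5.81 (standard error 0.26). Fast troponin genes moved in the same way, with log2 fold changes of -7.10 for Tnnc2, the calcium-binding subunit, -6.43 for Tnni2, the inhibitory subunit, and -6.05 for Tnnt3, the tropomyosin-binding subunit.

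Genes of the slow sarcomere are given beside these fast forms. The slow myosin heavy chain Myh7 was at 221, 127 and 43.7 in P1 and at 715, 611 and 769 in P2, a log2 fold change of -2.68 (standard error 0.61, limma adjusted p = 0.0154). Slow troponin C (Tnnc1) had -2.08, slow troponin T (Tnnt1) -2.38, and the slow regulatory light chain Myl2 -1.88, all DEGs. With the same total per library Tnnc1 (-1.43) and Myl2 (-1.23) lost their call, and with all 27 libraries in the fit all 4 did. Myl3, the slow essential light chain, was at 524, 529 and 488 in P1 and at 1278, 1294 and 1482 in P2, which did not overlap but at -1.39 did not reach the fold threshold. Tnni1, slow troponin I, overlapped, and Xirp1, an actin-binding protein of the intercalated disc and myotendinous junction, had -0.89. These slow-fiber genes and Xirp1 were chosen after their values were seen. Tnnc1 and Myl3 share sequence on the opposite strand with Nisch and Pth1r, which were at means of 4060 and 320 in P1 against 1585 and 12.2 in P2, and whether the counting used strand is not given in the sources used here.

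Some sarcomere values rested on single libraries. Tnnc2 was at 914956 in P2 replicate 1 and at 272643 and 273561 in the other P2 libraries. Ttn, the giant elastic protein, was at 198508, 11846 and 99927 in P2 and at 80.4, 1159 and 1162 in P1, with a standard error of 1.31. Desmin (Des), the intermediate filament of muscle, was at 55572 to 134168 in P2 and at 3664 to 6955 in P1, a log2 fold change of -4.03. With any 1 library left out, 33 to 36 of the 38 sarcomere genes were DEGs, all lower in P1. With the same total per library 32 were, and with all 27 libraries in the fit 25 were. In P3 the list held 0.099% to 0.104% of a library, below its share in either population.

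**Figure D2:**
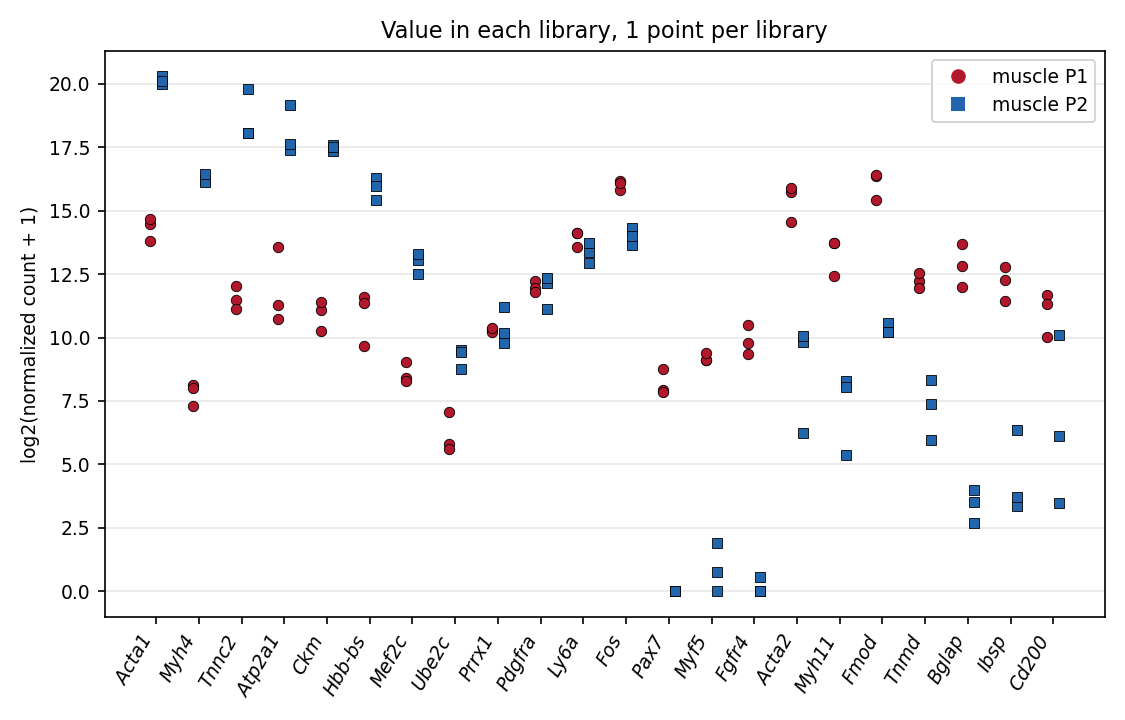
The value of 22 genes in each of the 6 libraries as log2(normalized count + 1), with circles for muscle P1 and squares for muscle P2. Fiber genes from Acta1 to Ckm and Hbb-bs sit higher in every P2 library, Prrx1, Pdgfra and Ly6a overlap, and Pax7, Fmod and Bglap sit higher in every P1 library.

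Genes of the triad, where voltage sensors open the calcium store, followed the same direction. Of 17 genes for calcium handling, 15 were DEGs lower in P1 and 2 higher, with a median of -5.16. With all 27 libraries in the fit 13 were lower and 1 higher. Ryr1 (chr7:29003344-29125179), the calcium release channel, was at 0.639, 110 and 0.567 in P1 and at 2200, 3061 and 2419 in P2, a log2 fold change of -8.59 (standard error 1.57, limma adjusted p = 0.00659). P1 replicate 2 was the only P1 library with more than 1 normalized count. Pvalb, the cytosolic calcium buffer of fast fibers, was at 266, 517 and 305 in P1 and at 71712, 77722 and 80449 in P2. The log2 fold change was -5.16 for Cacna1s, the voltage sensor, -7.37 for Cacng1, its gamma subunit, and -5.74 for Casq1, the calcium-binding protein of the fast store. Atp2a1, the fast calcium pump, was at 593024 in P2 replicate 3 and at 173476 and 203026 in the others, against 1712 to 12093 in P1.

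The 2 genes of this list that went the other way, named after their values were seen, were forms used outside fast fibers. Atp2a2, the calcium pump of slow, cardiac and smooth muscle, was at 1277, 2450 and 2264 in P1 and at 313, 710 and 602 in P2, a log2 fold change of 1.91 (standard error 0.40, limma adjusted p = 0.0112). Casq2, the cardiac and slow-fiber calsequestrin, was at 1121, 1266 and 1663 in P1 and at 155, 96.6 and 106 in P2, a log2 fold change of 3.50 (standard error 0.35). Neither overlapped between populations. Atp2a2 lost its call without P1 replicate 2 or 3 (limma adjusted p = 0.0547 and 0.0515), and Casq2 with all 27 libraries in the fit.

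All 22 genes of muscle energy metabolism were DEGs lower in P1, with a median of -5.30, and they stayed so when any 1 library was left out or with the same total per library. With all 27 libraries in the fit 19 were. Ckm (chr7:19404776-19422841), which buffers ATP through creatine phosphate, was at 2181, 2724 and 1236 in P1 and at 166300, 195979 and 188034 in P2, a log2 fold change of -6.56 (standard error 0.29, limma adjusted p = 2.57e-05). Aldoa, the muscle aldolase, was at 13810, 17707 and 13017 in P1 and at 547347, 694761 and 611149 in P2. Among enzymes of glycolysis the log2 fold change was -6.28 for Pgam2, -5.87 for Eno3, -4.37 for Gapdh and -3.86 for Ldha, and it was -5.61 for Pygm, which releases glucose from glycogen. Amd1, which feeds polyamine synthesis, was at 24.1, 27.1 and 2.27 in P1 and at 4023, 1586 and 4706 in P2. The energy list held 0.297% to 0.334% of P3, 0.437% to 0.526% of P1 and 7.91% to 9.22% of P2.

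The respiratory chain is encoded in the nuclear and in the mitochondrial genome. Of 26 nuclear-encoded subunits tested, 22 were DEGs lower in P1 and 0 higher, with a median of -2.19, and with the same total per library 13 were. The muscle forms Cox6a2, Cox8b and Cox7a1 of cytochrome oxidase had log2 fold changes of -5.73, -5.39 and -4.70, the latter 2 chosen after their values were seen, whereas the ubiquitous Cox4i1 had -1.26 and was no DEG. The 13 genes of the mitochondrial genome were in every case higher in all P1 libraries than in any P2 library, with a median of 0.99, and 9 had an adjusted p below 0.05 in limma, but 0 passed the fold threshold (13 had an unadjusted p below 0.05). The gene mt-Co1, for a catalytic subunit of cytochrome oxidase, was at 96738, 105937 and 94768 in P1 and at 58707, 51438 and 35228 in P2, a log2 fold change of 1.06 (standard error 0.22, limma adjusted p = 0.011). With the same total per library 11 of the 13 were DEGs higher in P1, and with quantile normalization 7 were. Of the total of normalized counts, they held 4.69% to 5.42% in P1 and 1.13% to 2.15% in P2.

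Regulators and membrane proteins of the fiber were less uniform. Of 10 myogenic regulators tested, 4 were DEGs lower in P1 and 0 higher. Myf6 (chr10:107492853-107494737), the family member kept in mature fibers, was at 24.9, 57.5 and 64.2 in P1 and at 2520, 2753 and 3181 in P2, a log2 fold change of -5.92 (standard error 0.43, limma adjusted p = 0.000141). Mef2c, which drives sarcomere genes, was at 338, 522 and 311 in P1 and at 5771, 8391 and 10020 in P2. Six4, a homeobox factor that acts upstream of the family, had a log2 fold change of -1.57, and its call was lost without any 1 library. Myod1, the determination factor, was at 483, 368 and 313 in P1 and at 1016, 1009 and 1066 in P2, which did not overlap but had a log2 fold change of -1.43.

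Of 13 genes of the dystrophin complex, 5 were DEGs lower in P1 (among them Cav3, Sgca and Dtna) and 0 higher, with a median of 0.10 that turned negative with some libraries left out. With the same total per library 2 were higher and 3 lower, with Sgca and Dtna no longer DEGs, and with all 27 libraries in the fit 1 was lower. The call of Dtna was also lost without any 1 of 4 libraries. The log2 fold change was -4.54 for Cav3, the caveolin of muscle, and -2.04 for Sgca, a sarcoglycan, while Dmd itself was at 1682, 1111 and 547 in P1 and at 1166, 700 and 154 in P2, with overlap. Lama2, the laminin chain of the fiber basement membrane, was at 10740 in P2 replicate 2 and at 740 to 1655 in the other 5 libraries. Of 9 neuromuscular junction genes tested, Chrnb1, a subunit of the acetylcholine receptor, was a DEG higher in P1 (log2 fold change 4.86, lost without any 1 of 4 libraries) and Rapsn, which clusters that receptor, was a DEG lower in P1 (-1.97). With the same total per library 2 were higher and 0 lower, with Rapsn at -1.32, and with all 27 libraries in the fit 1 was higher and 0 lower.

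Erythroid genes were also higher in P2. All 7 genes of the list, for globins, heme synthesis and the red cell membrane, were DEGs lower in P1, with a median of -5.48. Hbb-bs, a beta globin chain, was at 3062, 2600 and 822 in P1 and at 79209, 64801 and 43955 in P2, a log2 fold change of -5.02 (standard error 0.49, limma adjusted p = 0.000486). Its near copy Hbb-bt, like the pair Hba-a1 and Hba-a2, can share reads with it, so the split between copies is uncertain. Alas2, the first enzyme of erythroid heme synthesis, was at 67, 65.4 and 5.13 in P1 and at 3322, 2566 and 2639 in P2. Slc4a1, the red cell anion exchanger, was at 21.1 to 35 in P1 and at 2763 to 3343 in P2. The 7 genes held 0.937% to 1.60% of P2, 0.0254% to 0.103% of P1 and 0.235% to 0.385% of P3. They held on average 32.4% of periosteum P2 and 0.25% of periosteum P1, and 46.6% of bone marrow P2 and 1.41% of bone marrow P1. Erythroid RNA thus moved with the P2 gate in all 3 tissues, and its part in the other P2 results was not tested.

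Fam132b (chr1:91366430-91374217), which encodes the erythroblast hormone erythroferrone, had the largest log2 fold change toward P1, 11 (standard error 0.69, limma adjusted p = 7.44e-05). It was at 2229, 3091 and 4790 in P1 and at 1.28, 0.675 and 0 in P2, against 10.6 to 66.1 in P3. The 7 erythroid genes were lower in P1 than in P2, and the cell source of Fam132b was not tested. Fam132b overlaps Ilkap on the opposite strand, which was at means of 1146 in P1 and 1054 in P2.

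**Figure D3:**
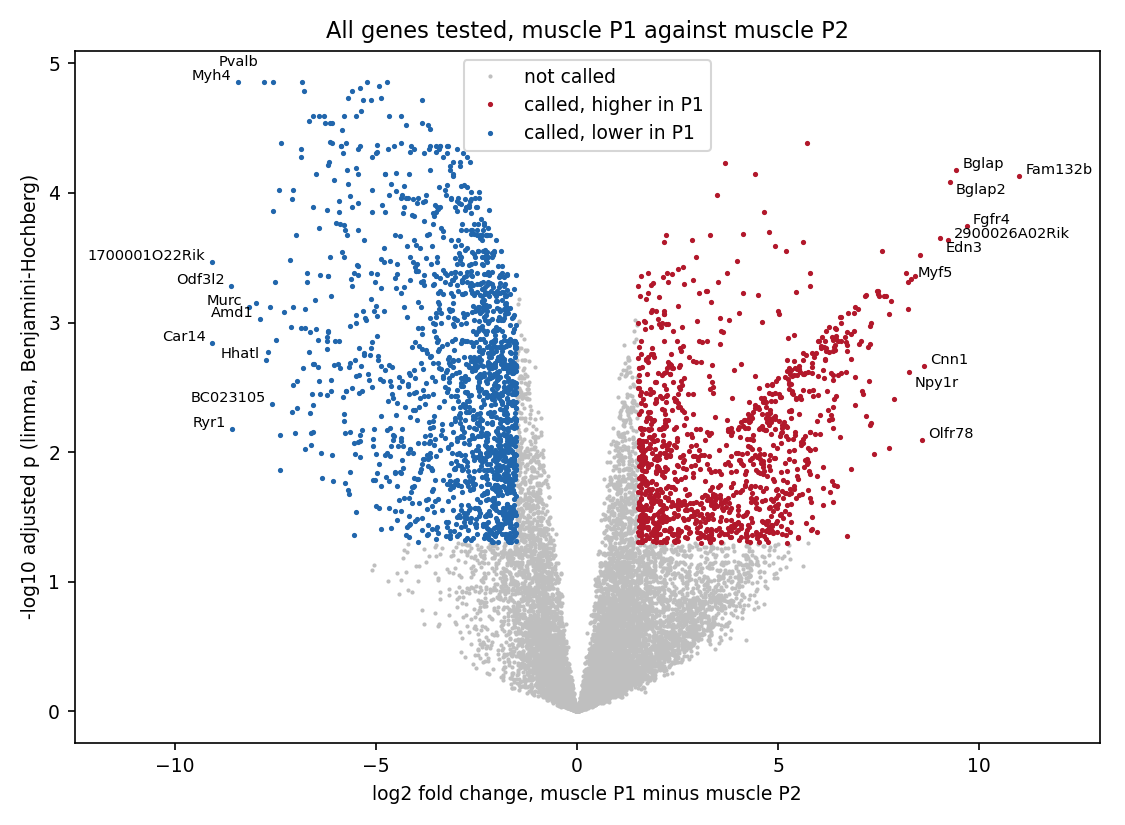
Each of the 13648 genes tested by its log2 fold change of muscle P1 over P2 (horizontal axis) and the -log10 of its limma adjusted p (vertical axis), with DEGs in color and the 10 largest non-overlapping changes in each direction named. Fam132b lies furthest right at 11, and Myh4 and Pvalb lie top left at -8.44 and -7.78.

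The other large changes toward P2 included genes outside these lists. Car14 (chr3:95897768-95904691), a membrane carbonic anhydrase, was at 14.7, 0 and 0 in P1 and at 1292, 1308 and 1461 in P2. It overlaps Aph1a on the opposite strand, which was at means of 405 in P1 and 616 in P2. Murc, a caveola-associated protein of muscle, was at 22.3, 1.56 and 2.82 in P1 and at 1419, 1908 and 2004 in P2, a log2 fold change of -8.17 (standard error 0.90). Hhatl had -7.74, Odf3l2 -8.60 and BC023105 -7.59, and 1700001O22Rik was listed at 0 in all 3 P1 libraries and at 875, 266 and 686 in P2. Each of these was at or below 70.2 in every P3 library.

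On the P1 side, satellite cell genes rose as a group. Of 12 genes, 11 were DEGs higher in P1 and 0 lower, with a median of 5.28, and for all 12 every P1 library lay above every P2 library. With 1 library left out 6 to 10 were DEGs, 6 without P1 replicate 1 and also 6 without P1 replicate 3, and with all 27 libraries in the fit 7 were. Pax7, the factor that defines satellite cells and was named after its values were seen, was at 428, 242 and 228 in P1 and listed at 0 in all P2 libraries, against 0.818 to 11.5 in P3. Myf5 (chr10:107482908-107486134), which marks committed satellite cells, was at 551, 560 and 667 in P1 and at 0.717, 0 and 2.79 in P2, a log2 fold change of 8.31 (standard error 0.81, limma adjusted p = 0.000462).

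Receptors and surface proteins of these cells moved alike. Fgfr4 (chr13:55152640-55168759), a fibroblast growth factor receptor of the myogenic lineage, was at 1448, 655 and 877 in P1 and at 0.481, 0 and 0 in P2, a log2 fold change of 9.69 (standard error 0.75). Calcr, the calcitonin receptor that keeps satellite cells quiescent, was at 515, 341 and 297 in P1 and at 16.5, 0 and 12.6 in P2, and was named after its values were seen. Heyl, a Notch effector, was at 1889, 1431 and 2390 in P1 and at 85.9, 67 and 68.9 in P2, a log2 fold change of 4.65. Cdh15, the cadherin of myogenic cells, rose less, by 1.59, and Vcam1, which other stromal cells also express, by 2.03. The list held 0.0757% to 0.133% of P1, 0.00666% to 0.0117% of P2 and 0.0572% to 0.0579% of P3. The sum over the list thus also lay above P2 in P3, where Pax7 and Myf5 were at most 14.7.

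Mural and smooth muscle genes formed the next block. Of 15 genes, 11 were DEGs higher in P1 and 0 lower, with a median of 5.40, and 9 to 14 were with any 1 library left out. Acta2, smooth muscle actin, was at 24056, 54709 and 60522 in P1 and at 75.2, 902 and 1059 in P2, a log2 fold change of 6.69 (standard error 0.97, limma adjusted p = 0.00241). Myh11, the smooth muscle myosin, was at 5540, 13472 and 13604 in P1 and at 40.3, 312 and 265 in P2. Cnn1, calponin of contractile smooth muscle, was at 556, 1195 and 1507 in P1 and at 0, 0 and 15 in P2, and Notch3, the receptor of arterial mural cells, rose by 5.40. P1 replicate 1 was the lowest P1 library for Acta2, Myh11, Cnn1 and Notch3. The mural list held 0.494% to 1.12% of P1, 0.015% to 0.0275% of P2 and 0.273% to 0.365% of P3. The pericyte genes were less clear: Rgs5, a regulator of G protein signaling, was at 2332, 1209 and 2017 in P1 and at 9.44, 961 and 233 in P2 and did not pass the test, and Abcc9, a channel subunit, overlapped.

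Olfr78 and Npy1r, receptors with known expression in vascular smooth muscle, were among the 10 largest changes. Olfr78 (chr7:102738511-102759471) was at 663, 2176 and 2548 in P1 and at 0, 0 and 65.1 in P2, a log2 fold change of 8.58 (standard error 1.65, limma adjusted p = 0.00809). Npy1r, a receptor for neuropeptide Y, was at 401, 892 and 1093 in P1 and at 13, 0 and 0 in P2. In P3, Olfr78 was at 421 to 834 and Npy1r at 324 to 426. Edn3, which encodes the peptide endothelin 3, was at 467, 446 and 669 in P1, and 2900026A02Rik at 407, 898 and 573, and both were listed at 0 in all P2 libraries.

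Endothelial genes were mostly no DEGs. Of 15 tested, 1 was a DEG higher in P1 and 0 lower, with a median of 0.16 that turned negative without P1 replicate 2 or P2 replicate 1. Pecam1, the junction protein CD31, was at 496, 1042 and 941 in P1 and at 498, 1649 and 1005 in P2, against 6067 to 10537 in P3. Esam, another junction protein, was at 954, 2002 and 1580 in P1 and at 211, 867 and 264 in P2, a log2 fold change of 1.98 (standard error 0.56, limma adjusted p = 0.0371), which was lost without any 1 of 5 libraries. Vwf, the clotting factor stored in endothelium, was at 4525 in P2 replicate 2, above the other 5 libraries, which is also the P2 library with the highest Cd200. The list held 0.064% to 0.146% of P1, 0.0194% to 0.0682% of P2 and 0.556% to 0.844% of P3.

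Tendon genes were higher in P1. Of 9 tenocyte genes, 8 were DEGs higher in P1 and 0 lower, with a median of 5.19, and 7 or 8 were with any 1 library left out. Fmod, the fibromodulin that sets collagen fibril width, was at 84576, 43268 and 85692 in P1 and at 1520, 1193 and 1180 in P2, a log2 fold change of 5.72 (standard error 0.29, limma adjusted p = 4.1e-05). Tnmd, tenomodulin, which marks mature tenocytes, was at 4728, 3919 and 5914 in P1 and at 316, 61.3 and 168 in P2. Thbs4, a matrix protein of the myotendinous junction, rose by 4.12 and Kera, keratocan, by 7.23. Scx, the tendon transcription factor, was at 79.5, 66.1 and 249 in P1 and at 52.5, 10.1 and 53.8 in P2 and did not pass the test, and its locus overlaps Bop1 on the opposite strand (means of 514 and 589). The list held 0.734% to 1.44% of P1, 0.0187% to 0.0245% of P2 and 0.335% to 0.523% of P3, although tendon was trimmed off before digestion.

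Matrix genes shared by many fibroblasts rose in part. Of 17 collagen genes, 6 were DEGs higher in P1 and 0 lower, with a median of 0.80. They held 3.17% to 3.95% of P1, 0.644% to 1.26% of P2 and 3% to 3.48% of P3. Col1a1, the main fibril chain of bone and tendon, was at 72212, 117997 and 105977 in P1 and at 17146, 19187 and 27530 in P2, a log2 fold change of 2.21 (standard error 0.26, limma adjusted p = 0.00102). Col3a1, the reticular fiber chain, overlapped, at 92309, 93542 and 104576 in P1 and 51614, 32450 and 98056 in P2. Col12a1, a fibril-associated collagen of tendon and periosteum named after its values were seen, rose by 5.45. Among 10 small leucine-rich proteoglycans, 5 were DEGs higher in P1 and 0 lower, namely Fmod and Kera, which also belong to the tenocyte list, Prelp, which anchors basement membranes (2.17), Aspn, asporin (2.03), and Bgn, biglycan (1.76).

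Bone genes were also higher in P1. Of 13 osteogenic genes tested, 9 were DEGs higher in P1 and 0 lower, with a median of 5.46. Bglap (chr3:88383501-88384464), which encodes osteocalcin, was at 4030, 13336 and 7243 in P1 and at 10.4, 14.9 and 5.52 in P2, a log2 fold change of 9.43 (standard error 0.57, limma adjusted p = 6.71e-05), and its near copy Bglap2, which can share its reads, had 9.27. Ibsp, bone sialoprotein, was at 2784, 6951 and 4967 in P1 and at 9.4, 12 and 80.8 in P2. Sp7, the osteoblast factor osterix, was at 86.3, 137 and 99.8 in P1 and listed at 0 in all P2 libraries.

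Other genes of the bone list changed by different amounts. Dmp1, a matrix protein of osteocytes, was at 251, 609 and 499 in P1 and at 13.7, 1 and 0 in P2, a log2 fold change of 7.10. Alpl, the alkaline phosphatase of the osteoblast surface, was at 1224, 1729 and 1462 in P1 and at 171, 444 and 367 in P2, a log2 fold change of 2.26 (standard error 0.40, limma adjusted p = 0.00564). Runx2, which starts the lineage, was at 115, 182 and 129 in P1 and at 1.4, 17 and 172 in P2, so that P2 replicate 3 overlapped and the gene was no DEG. The list held 0.137% to 0.268% of muscle P1, 0.00235% to 0.00539% of muscle P2 and 0.102% to 0.116% of muscle P3. It took on average 3.35% of periosteum P1 and 6.61% of bone marrow P1.

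Cartilage genes were higher in P1 with more spread. Of 18 tested, 11 were DEGs higher in P1 and 0 lower, with a median of 4.08. With 1 library left out 6 to 10 were, 7 without P1 replicate 1 and 6 without P1 replicate 2. Comp and Chad belong to this list and to the tenocyte list. The cartilage list held 0.268% to 0.356% of P1, 0.00501% to 0.0111% of P2 and 0.0664% to 0.108% of P3. Col2a1, the main cartilage collagen, was at 5054, 14155 and 1812 in P1 and at 67.6, 191 and 630 in P2, a log2 fold change of 4.64 (standard error 0.95, limma adjusted p = 0.0103). Col11a1, which nucleates its fibrils, was at 2529, 3504 and 2178 in P1 and at 3.57, 12 and 126 in P2, a log2 fold change of 7.09. Sox9, the chondrocyte factor, also listed here for nerve sheath fibroblasts, was at 841, 780 and 478 in P1 and at 261, 161 and 194 in P2, a log2 fold change of 1.75.

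**Figure D4:**
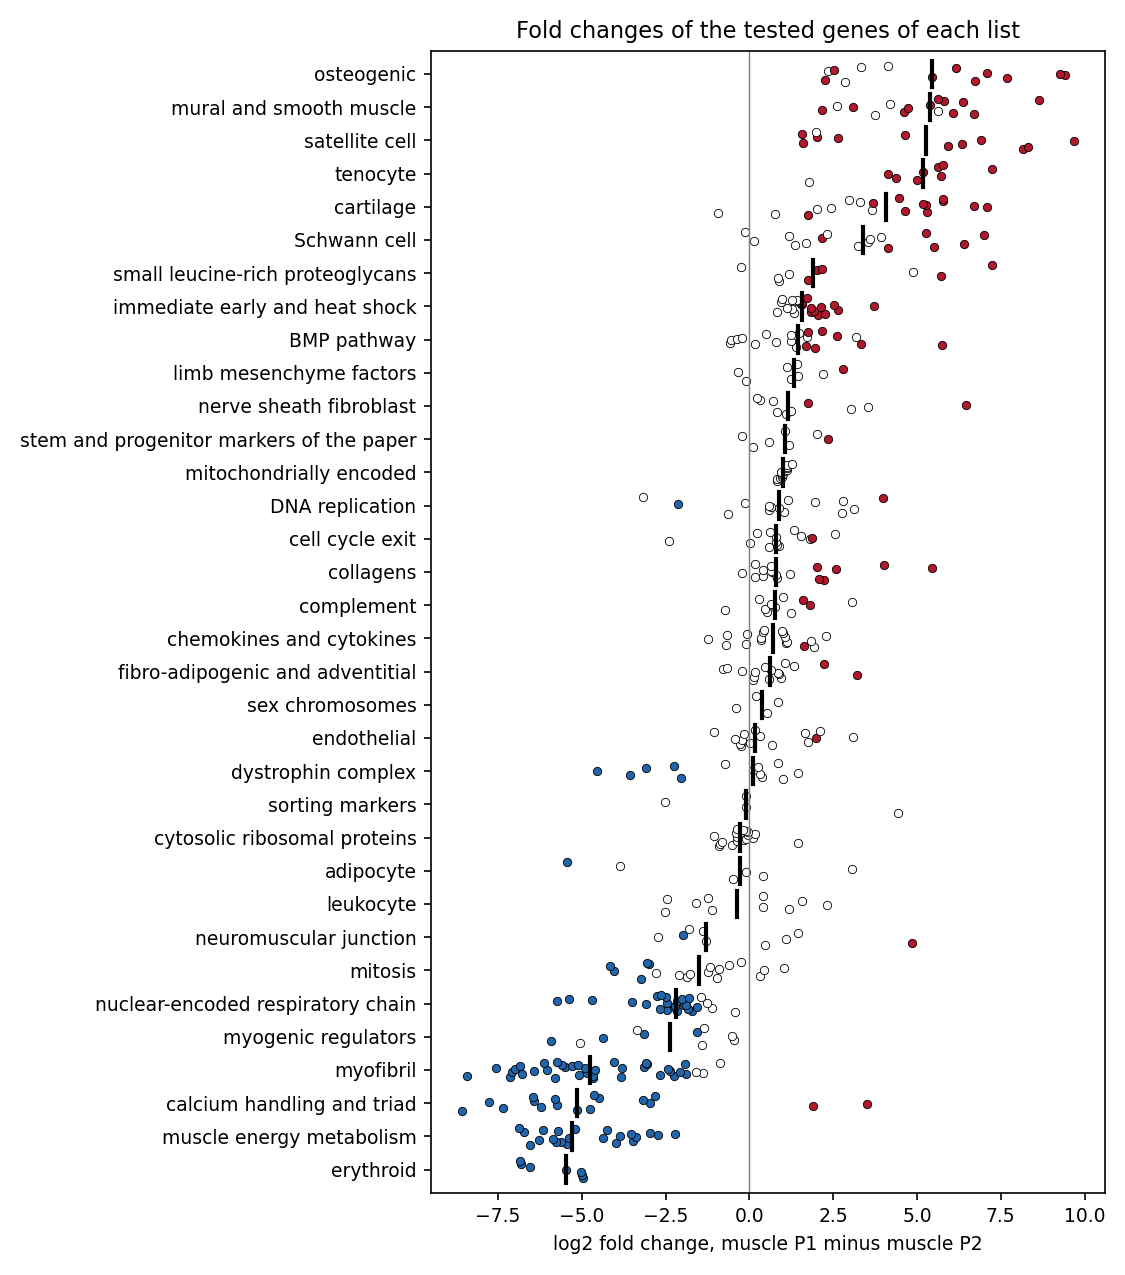
Log2 fold changes of muscle P1 over P2 for the tested genes of each of the 34 lists, 1 point per gene, filled where the gene was a DEG and open where not, with a black bar at each list's median. Medians ran from -5.48 for erythroid genes to 5.46 for osteogenic genes, beside 0.24 for all genes tested.

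In the BMP pathway, which instructs skeletal differentiation, ligands, receptors, targets and antagonists were measured. Of 20 genes tested, 7 were DEGs higher in P1 and 0 lower, with a median of 1.44, and with all 27 libraries in the fit 2 were. Without P1 replicate 1 or 2 the count fell to 3 or 4. Bmp2, a ligand, was at 1775, 2001 and 810 in P1 and at 534, 342 and 262 in P2, a log2 fold change of 1.97 (standard error 0.44, limma adjusted p = 0.0141), and the ligand Bmp5 had 1.70. Bmp4 was at 723, 584 and 679 in P1 and at 190, 309 and 265 in P2, without overlap and, at 1.40, short of the fold threshold. The receptors Bmpr1a and Bmpr2 overlapped, with 0.16 and 0.80. Among the Id targets, Id3 was at 24989, 28223 and 19675 in P1 and at 5251, 7109 and 4202 in P2, a log2 fold change of 2.16, Id2 had 1.76, and Id1 had 1.48 and did not pass. Chrdl1, a secreted BMP antagonist, was also higher in P1, by 2.61.

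Progenitor markers named by the study were compared as well. For 4 of the 7 every P1 library lay above every P2 library. Of the 7, chosen because the study names them for these cells, Postn, the matrix protein periostin, was the 1 DEG, at 4206, 4353 and 8575 in P1 and at 397, 1698 and 1744 in P2, a log2 fold change of 2.35 (standard error 0.60, limma adjusted p = 0.0243), lost without any 1 of the 3 P1 libraries. Cxcl12, the chemokine of perivascular stroma, was at 3778, 2918 and 4145 in P1 and at 1581, 1710 and 1824 in P2, a log2 fold change of 1.07. Lepr, the leptin receptor, had 2.02 and Ctsk, a collagen-degrading protease, 1.19, neither a DEG. Grem1, a BMP antagonist, was at most 13.6 in P1 and 20.9 in P2. With the same total per library 4 of the 7 were DEGs higher in P1.

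Fibro-adipogenic and adventitial fibroblast genes held more of every P1 library than of any P2 library. Their list held 3.76% to 5.48% of P1, 1.39% to 2.5% of P2 and 4.46% to 5.21% of P3. For 7 of its 16 genes every P1 library lay above every P2 library, and for 0 below. Of all genes tested, 22.7% lay above in this way. Of 16 genes, 2 were DEGs higher in P1 (Pi16 and Sema3c, the latter chosen after its value was seen) and 0 lower, with a median of 0.62, and with the same total per library 7 were. Pdgfra, the receptor that defines these fibroblasts, was at 4734, 3926 and 3576 in P1 and at 4552, 2226 and 5160 in P2. Ly6a (Sca-1) and Gsn, gelsolin, overlapped as well, with log2 fold changes of 0.59 and 0.16. Pi16, which marks adventitial fibroblasts, was at 36859, 33536 and 18827 in P1 and at 3462, 2139 and 3949 in P2, a log2 fold change of 3.21 (standard error 0.33, limma adjusted p = 0.000569). Of 8 limb mesenchyme factors, Pitx1, the hindlimb factor, was the 1 DEG (2.80), lost without any 1 of 5 libraries. Of 6 adipocyte genes tested, Car3, a carbonic anhydrase of adipocytes and slow fibers, was the 1 DEG, at 867, 1755 and 968 in P1 and at 39540, 54997 and 55198 in P2, and Adipoq, the adipocyte hormone, was listed at 0 in all P2 libraries and was at 6.68 to 57.7 in P1.

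Schwann cell genes were partly higher in P1. Of 16 tested, 6 were DEGs higher in P1 and 0 lower, with a median of 3.38. Sox10, the glial factor, was at 91.3, 108 and 59.8 in P1, and Cdh19, a cadherin of Schwann cells, at 67, 96.5 and 319, and both, named after their values were seen, were listed at 0 in all P2 libraries. Mbp, myelin basic protein, was at 1339 in P2 replicate 1 against 32.9 and 50.8 in the other P2 libraries, so it overlapped P1, and without P2 replicate 1 the list had 10 DEGs. Without any 1 of the P1 libraries it had 4. Of 10 nerve sheath fibroblast genes, Sox9 and Krt19, a keratin, were the 2 DEGs, and without P1 replicate 1 or 2 there were 0, without P1 replicate 3 there was 1 and without P2 replicate 2 there were 6. Leukocyte genes gave 0 DEGs of 10 tested by limma, 1 with an unadjusted p below 0.05, and Lyz2, lysozyme, was at 338, 394 and 383 in P1 and at 53, 141 and 590 in P2.

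Immediate early and heat shock genes, which cells switch on quickly under stimulation or stress, were higher in P1. Of 22 tested, 13 were DEGs higher in P1 and 0 lower, with a median of 1.58, and for 21 every P1 library lay above every P2 library. With all 27 libraries in the fit 6 were DEGs and with the same total per library 21. Without P2 replicate 3 there were 8. Fos, an AP-1 subunit, was at 74121, 57791 and 69771 in P1 and at 20554, 12801 and 16214 in P2, a log2 fold change of 2.04 (standard error 0.22, limma adjusted p = 0.000641). Its partner Junb rose by 1.83, the antiproliferative gene Btg2 by 2.51 and the nuclear receptor Nr4a2, named after its values were seen, by 3.72. The heat shock genes Hspa1a and Hspa1b, near copies that can share reads, had 1.43 and 1.26 and were no DEGs. The list held 4.28% to 5.06% of P1, 0.783% to 1.28% of P2 and 4.12% to 5.98% of P3, and its part in the other differences was not tested. Chemokines and complement were also examined. Of 18 chemokine and cytokine genes Ccl7, a monocyte chemokine, was the 1 DEG (1.62), lost without any 1 of 5 libraries, and of 11 complement genes 2 were DEGs higher in P1, among them C7, a pore subunit, at 1.82. With the same total per library 6 chemokine and 5 complement genes were DEGs higher in P1, and with quantile normalization 4 and 4, while with all 27 libraries in the fit neither list held a DEG.

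Cell cycle genes were divided into lists for mitosis, DNA replication and cell cycle exit. Of 18 mitosis genes tested, 5 were DEGs lower in P1 and 0 higher, with a median of -1.51, and 2 to 5 were with 1 library left out, 2 without P1 replicate 1 and 3 without P1 replicate 3, P2 replicate 1 or P2 replicate 3. With the replicate block 2 were. Mki67, the proliferation antigen, was at 80.9, 8.84 and 81.1 in P1 and at 458, 505 and 239 in P2, a log2 fold change of -3.24 (standard error 0.93, limma adjusted p = 0.0378), which was lost without any 1 of 5 libraries. Birc5, survivin, was at 34.3, 37.7 and 16.7 in P1 and at 692, 374 and 404 in P2, a log2 fold change of -4.03. Ube2c, a ubiquitin-conjugating enzyme of mitotic exit, was at 54.8, 48.3 and 134 in P1 and at 720, 427 and 683 in P2, but its locus overlaps Tnnc2 on the opposite strand, whose mean was 3072 in P1 and 487053 in P2, so its value is uncertain. Nusap1 and Kif23, which act on the spindle and in cytokinesis and were named after their values were seen, were the other DEGs of the list.

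Of 15 DNA replication genes tested, 1 was a DEG higher in P1 (Cdt1, a licensing factor, with a log2 fold change of 4.0 and chosen after its value was seen) and 1 lower (Rrm2), with a median of 0.89. Without any 1 of 5 libraries, all but P2 replicate 1, there were 0 in either direction. Rrm2, the regulated subunit of ribonucleotide reductase, was at 39.4, 117 and 144 in P1 and at 255, 428 and 539 in P2, a log2 fold change of -2.14 (standard error 0.63, limma adjusted p = 0.0411), while Pcna, the replication clamp, had 0.65. Of 14 genes tested in the cell cycle exit list, which also holds the G1 cyclins Ccnd1, Ccnd2 and Ccnd3, Ccnd2 was the 1 DEG. It was higher in P1 by 1.87, and as it is a cyclin and no inhibitor its rise is not read as cell cycle exit. The inhibitor Cdkn1a overlapped, at 3462, 3708 and 2571 in P1 and 3239, 1791 and 1670 in P2. All 7 erythroid genes moved in the same direction as the mitosis DEGs, and their part in this was not tested. Of 18 cytosolic ribosomal protein genes, 0 were DEGs in limma, 7 had an unadjusted p below 0.05, under quantile normalization 1 was a DEG, and their median of -0.28 turned positive with the same total per library.

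Whether the P1 and P2 difference was the same in other tissues was asked with interaction terms. Each compares the muscle difference with that of a second tissue over 12 libraries, and the 6 muscle libraries are shared by both comparisons. Against periosteum 989 of 15274 genes had a difference that passed the thresholds, 441 more positive in muscle (2.89%) and 548 more negative (3.59%). Against bone marrow 6588 of 16972 genes passed, 3767 more positive (22.2%) and 2821 more negative (16.6%). The median difference of all genes was 0.01 against periosteum and 0.65 against bone marrow. Replicates were less alike in periosteum, where the median SD of a gene was 1.08 in P1 and 1.49 in P2, and the count against periosteum ranged from 470 to 1766 with 1 library left out.

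The fiber lists were counted by the direction of this difference. Of the 22 energy genes, 8 were more negative in muscle than in periosteum and 18 than in bone marrow, with 0 more positive in either. Of the 27 nuclear-encoded respiratory chain genes the counts were 15 and 22, again with 0 more positive. Of the 38 sarcomere genes 4 were more negative than in periosteum and 16 than in bone marrow, where 1 was more positive. Sarcomere genes held a mean of 0.0891% of periosteum P1 and 0.0322% of periosteum P2, far below their share in muscle P2. Of the 17 calcium handling genes 1 was more negative than in periosteum, which is near the share over all genes, and 7 than in bone marrow, where 2 were more positive. Of 12 satellite cell genes, 2 were more positive in muscle than in periosteum and 8 than in bone marrow, where 2 were more negative. Of 20 cartilage genes 12 were more positive than in periosteum and 9 than in bone marrow, where 1 was more negative. The cartilage list held 1.43% to 4.71% of periosteum P1 and 3.16% to 5.29% of periosteum P2. Its share of muscle was lower, 0.268% to 0.356% in P1 and 0.00501% to 0.0111% in P2. In bone marrow it was 1.42% to 1.95% in P1 and 0.00512% to 0.0171% in P2. Of 19 mitosis genes, 5 and 15 were more positive in muscle, and 0 more negative. The mitosis list held only 0.00553% to 0.0126% of muscle P1 and 0.0177% to 0.0252% of muscle P2. In periosteum it held 0.017% to 0.0209% of P1 and 0.497% to 0.509% of P2. Its share of bone marrow was 0.016% to 0.0413% in P1 and 0.583% to 0.849% in P2.

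Single genes showed opposite signs in the tissues. Car3 was lower in muscle P1, as given above, but was at 5135, 15426 and 11875 in periosteum P1 against 21.1, 94.9 and 43.4 in periosteum P2, a difference between the tissues of -13.19 (standard error 0.78, limma adjusted p = 4.66e-06). In bone marrow it was at 59958, 74284 and 51524 in P1 and at 140, 83 and 224 in P2, a difference of -14.22 (standard error 0.50, limma adjusted p = 3.39e-09). Mstn, the hormone that limits muscle growth, was at 21.6, 28.5 and 69.7 in muscle P1 and at 1481, 839 and 1372 in muscle P2, and in periosteum at 1338, 1244 and 60.1 in P1 and at 0, 1.68 and 1.18 in P2. Mef2c had the same reversal against bone marrow, where it was at 512, 801 and 252 in P1 and at 0, 0 and 12.9 in P2.

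Fam132b went the other way. In periosteum it was at 0, 0 and 25.3 in P1 and at 10.7, 3356 and 210 in P2, with overlap. In bone marrow it was at 0, 10.7 and 1.11 in P1 and at 314, 201 and 26.8 in P2. The population with the higher mean was thus P2 in both and P1 in muscle, and in periosteum that mean rested mostly on P2 replicate 2. The difference between tissues was 17.09 (standard error 2.64, limma adjusted p = 0.00396) against periosteum and 16.38 (standard error 1.56, limma adjusted p = 1.62e-05) against bone marrow. Fgfr4 was listed at 0 in all bone marrow P1 libraries and was at 28.1, 25.8 and 30 in bone marrow P2.

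**Figure D5:**
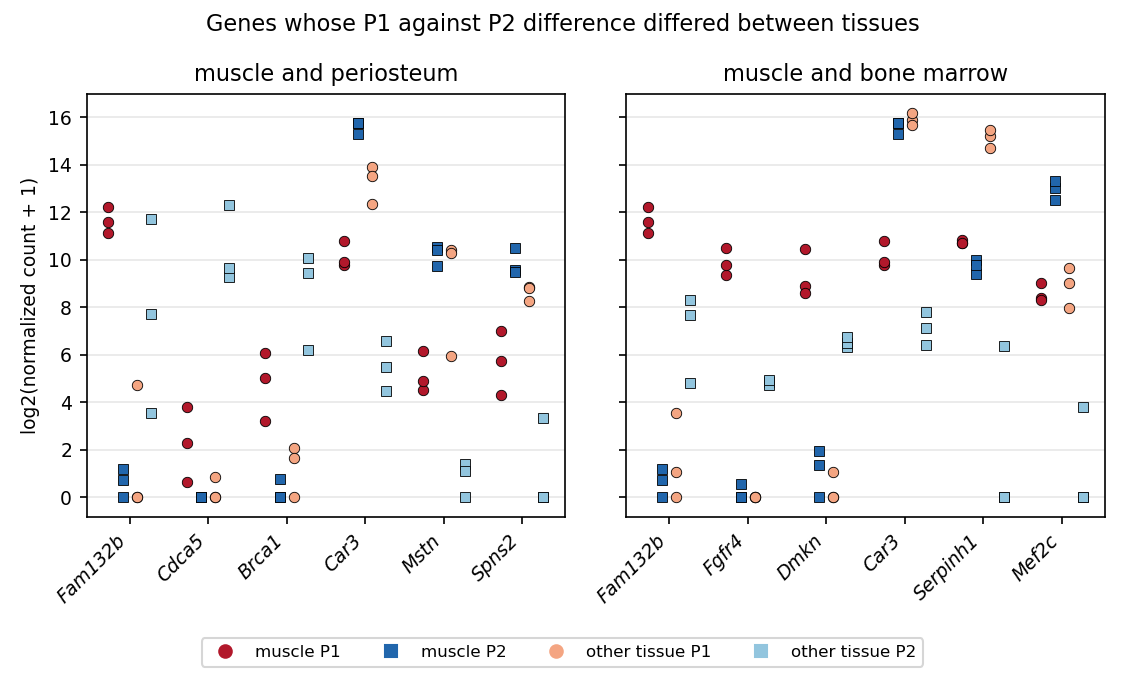
Values as log2(normalized count + 1) of the 6 genes named for each interaction, muscle with periosteum on the left and muscle with bone marrow on the right, with circles for P1 and squares for P2 and 1 point per library. Car3 is higher in P2 of muscle and in P1 of the other tissues, and Fam132b is higher in muscle P1 and lower in the P1 libraries of bone marrow.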

How the data were processed

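Cells were sequenced in bulk with SMART-Seq v4 and Nextera XT kits. According to the methods the authors trimmed reads with Trim Galore, aligned them with STAR and normalized counts with DESeq2. The deposited signal values are normalized counts, and the build, annotation and counter are not given in the sources used here. Whole reads were not recovered, so count tests and counting errors are left out. Divided by the step that fitted best, 24% to 81.9% of values below 50 per library lay within 0.05 of a whole number. The chance share for a single step is 10%. Precision is limited by 3 libraries per group.

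Genes with at least 10 in at least 3 of the 6 libraries were kept. Limma 3.58.1 in R 4.3.3 (lmFit, eBayes with trend) was run on log2(normalized count + 1), a pseudocount of 1 that understates changes of low genes. Interactions used 12 libraries. The fit was tested on simulated data. Summaries and figures used Python 3.11.15, pandas 2.3.3 and matplotlib 3.10.9. Gene positions are from GENCODE M21 (GRCm38) and upstream sequences from RefSeq. Of 501 list genes 499 were found. Of 30154 entries, 185 share a symbol and 1 is a transgene.

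Members and lists were chosen with earlier results of these data known. Named were the sorting genes, genes the study names, the 10 largest non-overlapping DEGs in each direction with a group mean of at least 500, the genes of highest mean in each list, and the 3 largest in each direction per interaction. Others are said to be chosen after their values were seen. Alternatives were pseudocounts, filters, scalings, the replicate block, no trend, thresholds, other samples in the fit and leaving out each library. Results for some genes are not reported here.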

Additional observations from a re-analysis of the deposited data

Results flagged for a closer look

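The difference between P1 and P2 was not the same in muscle as in the other tissues for 989 genes against periosteum and for 6588 genes against bone marrow, each by an interaction term in limma. On the log2(value + 1) scale, the muscle difference less the periosteum difference was 17.09 for Fam132b, 12.36 for Cdca5 and 11.85 for Brca1, and -13.19 for Car3, -13.07 for Mstn and -11.69 for Spns2. Against bone marrow it was 16.38 for Fam132b, 14.54 for Fgfr4 and 14.39 for Dmkn, and -14.22 for Car3, -11.98 for Serpinh1 and -11.98 for Mef2c. Cdca5 was listed at 0 in all muscle P2 libraries and Fgfr4 in all bone marrow P1 libraries. Each of the other genes except Car3 was also at 0 in at least 1 library of a compared group. Apart from Car3, the sizes of these differences therefore depend on the pseudocount of 1. Cdca5 and Brca1 reached at most 66.4 in muscle P1, and their differences rest on periosteum P2, where Cdca5 was at 616, 5042 and 797 and Brca1 at 73.5, 1083 and 693. Serpinh1 was higher in P1 in both tissues, by 1.02 in muscle and 13 in bone marrow. Spns2 overlaps Mybbp1a on the opposite strand, which was at means of 802 in muscle P1 and 656 in muscle P2. No cause of these differences was tested.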

How the results depend on the processing

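Of the 151 named genes that were DEGs in muscle, 104 were DEGs under every alternative run. Among named genes that were DEGs in the main fit or in the alternative, 0 turned direction. Sign changes of named genes that were DEGs in neither fit were not counted. With all 27 libraries in the fit, 1567 genes were DEGs in place of 2771, against periosteum 2324 in place of 989, and against bone marrow 3975 in place of 6588, and 36 named genes lost their call. With 1 library left out, the counts ranged from 2012 to 2976 in muscle, from 470 to 1766 against periosteum and from 5577 to 6862 against bone marrow. Against periosteum the count fell to 470, 525 and 496 without muscle P1 replicate 1, 2 or 3 and to 632, 604 and 580 without muscle P2 replicate 1, 2 or 3, and rose to 1766 without periosteum P2 replicate 1. Without muscle P1 replicate 1, 2 or 3, 23, 19 and 21 named genes lost their call, and without muscle P2 replicate 1, 2 or 3, 11, 8 and 14 did. Six4 lost it without any 1 library, and Cdh15, Ccl7, Esam, Ifitm5, Mki67, Pitx1, Prx and Rrm2 without any 1 of 5 libraries. Other filters, pseudocounts and scalings kept the 3 counts within 1.5 times, as did other fold thresholds for the count in muscle, the only one for which they were run. Against bone marrow the share of more positive genes was 57.2%, and 43.6% with a mean of at least 50, 67.6% with the same total, 47.3% with quantile normalization and 44.7% with the median log ratio at 0. The medians of 27 of the 34 lists kept their sign under every alternative, and those of the adipocyte, ribosomal protein, dystrophin complex, endothelial, leukocyte, Y-linked and sorting gene lists did not. The cause of these moves was not tested.

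Replicate numbers gave no sign of pairing: deviations of P1 and P2 libraries with the same number had r of 0.0141, 0.0498 and -0.0162. With the number as a replicate block 2423 genes were DEGs in muscle, 738 against periosteum and 6499 against bone marrow, and 9 named genes lost and 3 gained their call. Values near 10 or below limit what can be read from low genes.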
